A study of Paspalum vaginatum with 72 samples.

Results

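Phosphate transport and starvation genes of seashore paspalum (Paspalum vaginatum, a warm-season turfgrass of salt-affected shores) were taken from the deposited gene table by their Swissprot protein match. A gene model was a member where that match was named an inorganic phosphate transporter, a phosphate transporter PHO1, an SPX domain-containing protein or a purple acid phosphatase. The rule found 56 of 27743 gene models: 21 inorganic phosphate transporters (PHT), 3 PHO1 proteins, 10 SPX proteins and 22 purple acid phosphatases (PAP). The rule used names and no measured value. The 56 carried 34 distinct names, so a label such as PHT1-2 gives the matched protein of another plant, and several gene models can share it.

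Plants take up phosphorus as inorganic phosphate, mostly through PHT1 proton symporters in the root plasma membrane. PHO1 proteins load it into the xylem, SPX-MFS proteins carry it across the vacuolar membrane, PHT2-1 carries it into plastids, and purple acid phosphatases release it from organic esters in the soil and the vacuole. In rice and Arabidopsis, SPX proteins bind inositol polyphosphates and hold back the PHR transcription factors while phosphate is ample, and transcripts of many PHT1, SPX and PAP genes rise when it runs short.

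RNA was sequenced from leaves and roots of accession USA17-18, described in the methods as salt-tolerant, and of accession USA17-26, described there as salt-sensitive. Plants were listed at 400 mM NaCl for 8 h, 12 h, 24 h, 48 h or 5 days, or were not stressed, with 3 libraries in each of the 24 groups, 72 in all. By the methods a replicate pooled 6 plants grown in hydroponics, so the p-values measure the spread between such pools. By the same methods NaCl was raised in daily steps to its final concentration. If the times run from the first step, the dose also rose with time. The labels put the non-stressed plants at time 0 whereas the methods describe a control taken on day 5, and no source used here states the hour of collection, so salt, age and hour of day cannot be told apart. Each accession is 1 genotype, so a difference between them cannot be tied to salt tolerance.

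Values were FPKM, the fragments of a gene scaled to its length and to the mapped fragments of the library. FPKM summed to between 671959 and 774486 per library, and 17555 to 20676 gene models reached 1 FPKM. Total reads are not known. Low values that were multiples of a single fragment gave depths of 0.735 to 1.29 relative to the median library. The accession label could be checked with genes near 0 in one accession and expressed in the other. For each tissue they were chosen in the other tissue, from its non-stressed, 24 h, 48 h and 5 day libraries. They also had to be expressed in the tissue that was checked. Their level is given relative to their median over all 18 libraries of the accession expressing them in the tissue checked, salt included. In 6 libraries labelled salt-tolerant (leaf 12 h replicates 1 to 3, leaf 8 h replicate 1, root 8 h replicate 1 and root 12 h replicate 1) the sensitive-type genes stood at 54.5 to 92.8% of their median in sensitive libraries. The tolerant-type genes stood there at 16.7 to 62.3% of their median in tolerant libraries. In the other libraries labelled tolerant the sensitive-type genes stood at no more than 20.2%. Where leaving out these libraries changed a call on a value printed here, both values are given. Apart from this, the mean correlation of 7 libraries with their replicates was at least 0.05 below the correlation between those replicates: in tolerant plants non-stressed leaf replicate 1, 5 day leaf replicate 3 and 12 h root replicate 1, and in sensitive plants non-stressed leaf replicate 3, 12 h leaf replicate 1, 24 h leaf replicate 1 and 5 day root replicate 3.

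The root marker sum separated the tissues, and the leaf marker sum overlapped between them at its extremes. The 15 leaf marker genes (chlorophyll a-b binding proteins and the small subunit of Rubisco) summed to 1.37 to 1179 FPKM in roots and to 307 to 43228 FPKM in leaves. Within leaves their sum was 307 to 8138 FPKM at 8 h and 12 h, against 3999 to 43228 FPKM at the other times including the non-stressed plants. The 71 root marker genes, 1 of them at 0 in all roots, summed in tolerant roots to 907 to 2916 FPKM under salt and 7962 to 9944 FPKM without it, and in sensitive roots to 1264 to 14201 FPKM under salt and 6433 to 10655 FPKM without it. In leaves they summed to 201 to 543 FPKM. The root marker sum thus moved with salt, and its part in the root results below was not tested. In tissue samples fewer cells of a type and less RNA per cell cannot be told apart.

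A gene was tested in a tissue where it reached 1 FPKM in at least 3 of the 36 libraries. Of the 56 members, 42 were tested in roots (14 PHT, 3 PHO1, 9 SPX and 16 PAP) and 35 in leaves (7 PHT, 3 PHO1, 8 SPX and 17 PAP). Of these, 32 were tested in both tissues, 10 in roots alone, 3 in leaves alone and 11 in neither, and 8 never reached 1 FPKM. The PHT1-3 gene emOS90.256 and the PHT1-13 gene emFS5.142 passed with exactly 3 libraries, and emFS5.146 and emOS109.40 missed with 2. A difference was called where limma's adjusted p was at most 0.05 and the log2 fold change at least 1.5 in size, with folds on the log2(FPKM + 1) scale, which understates changes of genes near 1 FPKM.

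In roots under salt, more members fell than rose in both accessions, and the genes that fell were mainly PHT1 uptake transporters and SPX genes. In tolerant roots 13 of 42 tested members were lower at 1 salt time or more and 4 were higher, against 9.46% lower and 9.77% higher of all 22194 genes tested. The 13 include the PHT1-3 gene emOS90.256, which passed the filter only through the non-stressed roots it fell from and so had to differ, which leaves 12. In sensitive roots 16 were lower and 6 were higher, against 11.4% lower and 11.9% higher of all genes. The 6 include the PHT1-4 gene emFS5.139, which passed only through sensitive salt roots. Without these genes the lower members were 28.6% and 38.1% of those tested, and the higher members, at 9.5% and 11.9%, lay near the shares of all genes. Without the 2 libraries of high sensitive-type genes the tolerant count was again 17, with 12 lower and 5 higher. Of the lower genes, 12 were lower in both accessions, which is 12 of the 13 in tolerant and 12 of the 16 in sensitive roots. How many of all genes were lower in both was not computed, so this overlap cannot be read as particular to the members. The median log2 fold change of the 42 tested members was -0.40 to -0.17 in tolerant and -0.93 to -0.41 in sensitive roots over the 5 times, against -0.11 to 0.03 and -0.17 to 0.04 over all genes.

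By family, 5 PHT genes, emOS90.256 among them, and 6 SPX genes fell in tolerant roots and 6 PHT and 6 SPX genes in sensitive roots, while 1 PHT and 2 SPX genes rose in each. Of the 16 PAP genes tested, 2 fell and 1 rose in tolerant roots and 3 fell and 3 rose in sensitive roots. Of the 3 PHO1 genes, 1 fell in sensitive roots and none was called in tolerant roots. Through time the members lower in tolerant roots numbered 11, 8, 9, 10 and 10 at 8, 12, 24, 48 h and 5 days, each count with emOS90.256 in it, against 6.16, 5.95, 4.5, 5.39 and 2.57% of all genes. In sensitive roots they numbered 10, 10, 13, 13 and 13, against 7.35, 5.78, 7.39, 5.21 and 4.96% of all genes. Each time was compared with the same 3 non-stressed libraries, so the times share their controls.

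**Figure D1:**
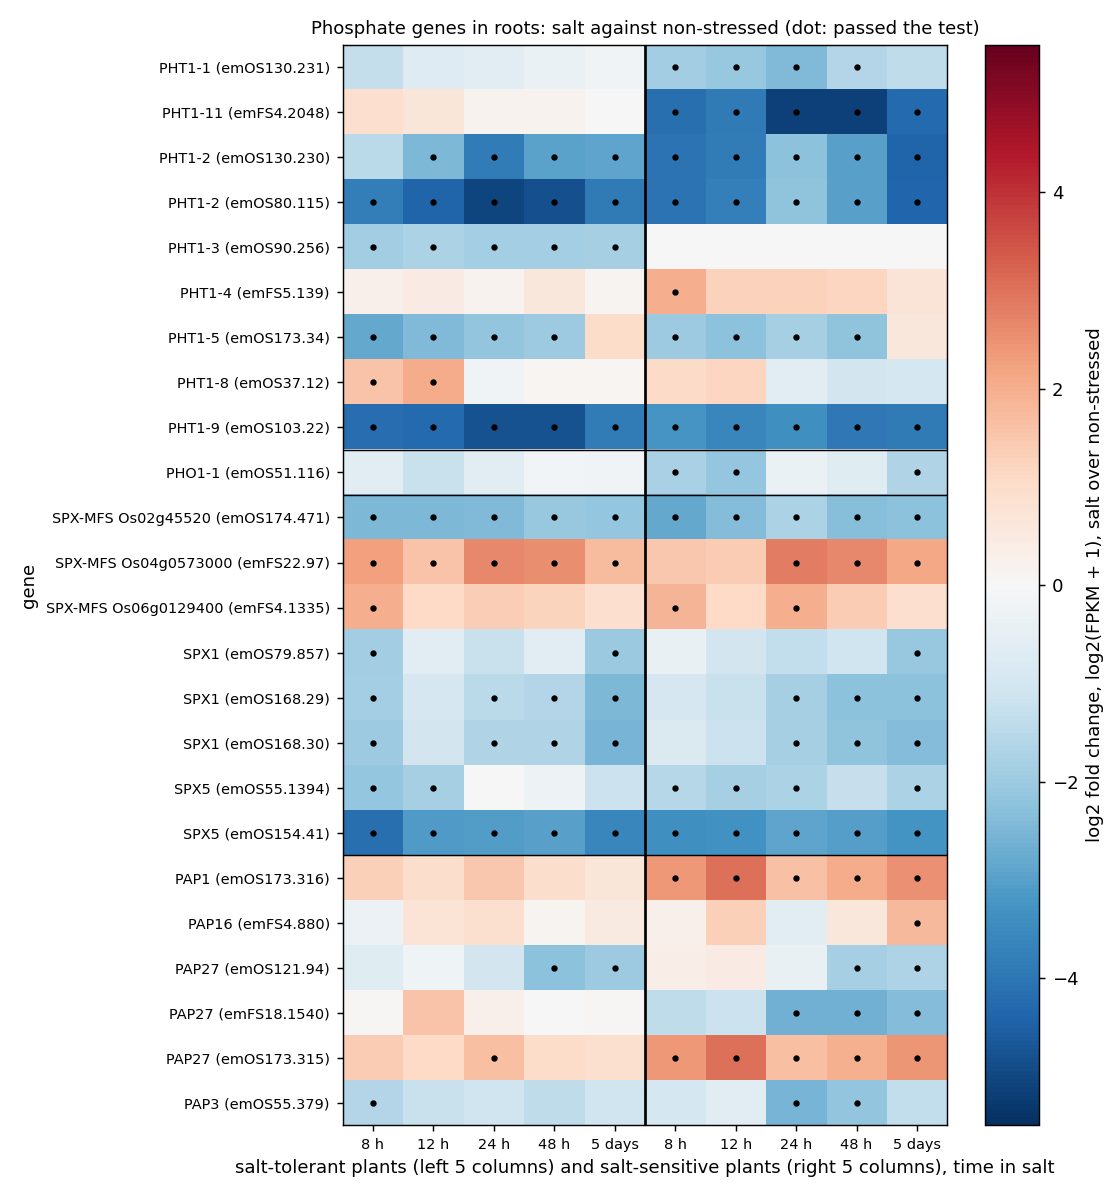
Log2 fold change, salt over non-stressed on the log2(FPKM + 1) scale, for the 5 salt times in roots (columns, tolerant plants left and sensitive plants right). Only members called at 1 salt time or more in roots of either accession are drawn. Dots mark called changes. The PHT1-2 gene emOS80.115, the PHT1-9 gene, the SPX5 gene emOS154.41 and the SPX-MFS2 gene carry dots on blue at all 5 times in both accessions.

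The PHT gene with the highest mean over the 72 libraries was emOS80.115, a PHT1-2 gene on chromosome 1 (56217775 to 56219355, minus strand). Its rice namesake is a root phosphate transporter. In tolerant roots it had 38.6, 37.9 and 30.4 FPKM at 8 h, 12.8, 10.4 and 22.2 FPKM at 24 h and 28.9, 31.6 and 40.4 FPKM at 5 days of salt, against 559, 419 and 568 FPKM in non-stressed roots. All 15 salt libraries, at 3.45 to 46.2 FPKM with a median of 28.9, lay below all 3 non-stressed ones. The log2 fold change was -3.81, -4.39, -5.06, -4.82 and -3.90 at the 5 times in order (adjusted p = 1e-06 to 6.3e-05). In sensitive roots it had 17.6, 17.0 and 6.15 FPKM at 8 h, 42.5, 28.5 and 90.8 FPKM at 24 h and 15.2, 7.94 and 7.88 FPKM at 5 days, against 226, 145 and 348 FPKM in non-stressed roots. The salt and non-stressed libraries again did not overlap, and the fold was smallest at 24 h (-2.21) and largest at 5 days (-4.38), with adjusted p = 7.61e-06 to 0.00774. At 24 h the root marker sum in sensitive roots was also at its highest under salt, 5070 to 14201 FPKM.

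A second PHT1-2 gene, emOS130.230, lies on the same chromosome (55292003 to 55293583, plus strand) with the same span of 1581 bases. It had 16.6, 17.6 and 19.0 FPKM in non-stressed tolerant roots, against 363, 228 and 546 FPKM in non-stressed sensitive roots (log2 fold change -4.26 ± 0.75 (SE), adjusted p = 0.000198). No tolerant library reached the lowest sensitive one. Under salt it fell in both accessions. At 5 days it had 0.60, 3.90 and 1.06 FPKM in tolerant roots (log2 fold change -2.88 ± 0.75 (SE), adjusted p = 0.00537) and 25.5, 13.2 and 11.4 FPKM in sensitive roots (log2 fold change -4.42 ± 0.75 (SE), adjusted p = 3.88e-05), and all 15 salt libraries of each accession were below its non-stressed libraries. The accession difference was also called at 12 h, 24 h, 48 h and 5 days (-5.83 to -2.73), and without the 2 libraries with high sensitive-type genes at 8 h as well (-2.20, adjusted p = 0.0406, against -1.68 and no call with them). The highest salt values among tolerant roots, 12.7 FPKM at 8 h and 13.3 FPKM at 12 h, came from the 2 libraries with high sensitive-type genes.

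The summed level of both genes overlapped between the accessions, and the share of each copy in that sum did not overlap. The summed FPKM of the pair averaged 533 ± 83.6 in tolerant and 619 ± 262 in sensitive non-stressed roots (SD, n = 3 each), with overlapping ranges of 437 to 587 and 373 to 894 FPKM. The share of emOS80.115 in that sum was 55.3 to 98.3% with a median of 97.0% over the 18 tolerant root libraries, and 35.1 to 42.0% with a median of 38.6% over the 18 sensitive ones. The lowest tolerant shares, 55.3% in 12 h replicate 1 and 75.3% in 8 h replicate 1, belonged to the libraries with high sensitive-type genes. In sensitive roots the share kept to this narrow band while the sum ranged from 17.5 to 894 FPKM. No source used here states how reads that match both copies were assigned, so the split between copies carries that limit, and so would the sum if such reads were left out. Each copy has neighbours of the same kind, a PHT1-1 gene of 1987 bases (emOS130.231 and emOS80.113) and a PHT1-12 gene that never reached 1 FPKM (emOS130.232 and emOS80.112), in mirror order on opposite strands.

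**Figure D2:**
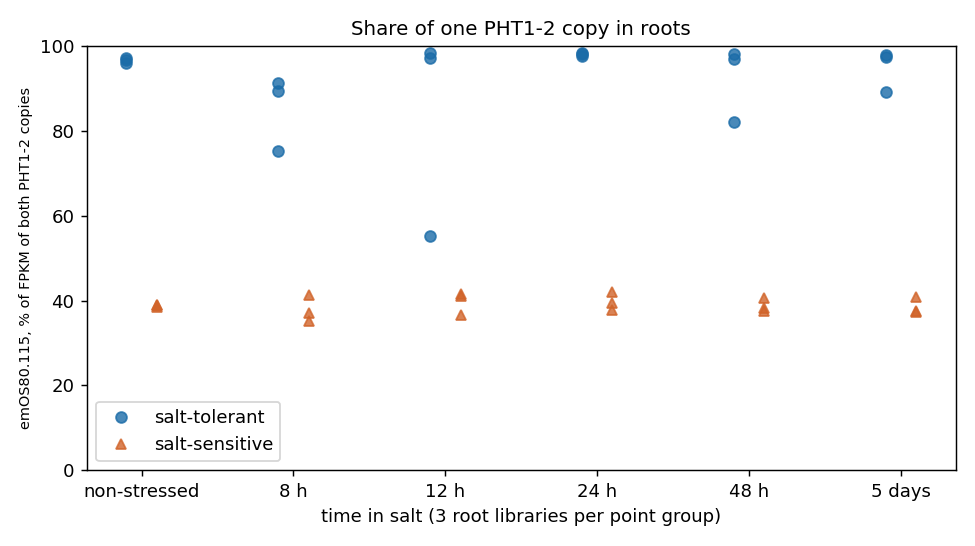
Share of emOS80.115 in the summed FPKM of both PHT1-2 genes (vertical axis, percent) for each root library by time in salt (horizontal axis), tolerant libraries as circles and sensitive as triangles. Sensitive roots stay between 35.1 and 42.0%, and tolerant roots lie above 75% except for 12 h replicate 1 at 55.3%.

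The PHT1-9 gene emOS103.22 on chromosome 10, named for a rice uptake transporter that phosphate shortage induces, fell at every time. It had 1.97, 3.05 and 3.17 FPKM at 8 h and 2.86, 2.41 and 6.25 FPKM at 5 days in tolerant roots, against 71.5, 61.8 and 63.5 FPKM without salt. Sensitive roots had 2.70, 7.31 and 4.19 FPKM at 8 h and 5.42, 1.74 and 1.40 FPKM at 5 days, against 61.5, 36.4 and 55.5 FPKM without salt. In neither accession did a salt library come near the lowest non-stressed one. Log2 fold changes were -4.80 to -3.86 in tolerant roots (adjusted p = 4.45e-10 to 3.51e-08) and -3.95 to -3.23 in sensitive roots (adjusted p = 1.55e-08 to 2.58e-07) over the 5 times. Its leaf values stayed below 1 FPKM in all libraries.

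The PHT1-11 gene emFS4.2048, on a sequence not placed on a chromosome, fell in sensitive roots and was low in tolerant roots throughout. PHT1-11 of rice is the transporter of mycorrhizal roots. It had 0.12, 0.56 and 0.25 FPKM in non-stressed tolerant roots, against 7.26, 105 and 88.3 FPKM in non-stressed sensitive roots (log2 fold change -5.04 ± 0.71 (SE), adjusted p = 9.75e-06). The sensitive libraries spread over more than an order of magnitude among themselves but did not overlap with the tolerant ones. In sensitive roots it had 0.03, 0.58 and 0.14 FPKM at 24 h and 0.29, 3.00 and 1.06 FPKM at 5 days, and log2 fold changes were -5.15 to -3.89 (adjusted p = 1.7e-06 to 8.53e-05). At 12 h its highest library, at 10.9 FPKM, lay above the lowest non-stressed library. In tolerant roots salt left it between 0.06 and 2.94 FPKM and no time was called (-0.03 to 0.92). The difference between the accessions' salt responses was called at every time, with 4.25 to 5.35 on the log2 scale and adjusted p = 0.00299 to 0.0382. At no more than 0.56 FPKM without salt, the gene had little room to fall in tolerant roots. This response difference therefore cannot be told apart from the difference between the non-stressed roots. The calls at 12 h and 5 days were lost on leaving out any of several single libraries, with adjusted p up to 0.149. They were also lost with a pseudocount of 0.1 (adjusted p = 0.0653 and 0.173).

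Other PHT genes in roots are given by their folds. The PHT1-5 gene emOS173.34 was lower from 8 h to 48 h, with log2 fold changes of -2.80, -2.44, -2.15 and -1.99 in tolerant roots and of -1.98, -2.26, -1.82 and -2.23 in sensitive roots, and at 5 days it was not called in either (1.01 and 0.60). The PHT1-1 gene emOS130.231 fell in sensitive roots from 8 h to 48 h (-2.42 to -1.63) and was not called in tolerant roots. The PHT1-3 gene emOS90.256 had 4.47, 2.12 and 2.75 FPKM in non-stressed tolerant roots and no more than 0.28 FPKM in any tolerant salt library, and those 3 libraries alone carried it past the filter, so its salt difference was fixed by the filter and is not a result. In non-stressed sensitive roots it was listed at 0 in all 3 libraries. This gene was named after its values were seen.

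The PHT1-8 gene emOS37.12 differed between the accessions at all 6 time points in roots and was lower in tolerant roots each time. The differences were -3.29 without salt and -2.89 to -2.18 under salt (adjusted p = 0.000514 to 0.0351 over the 6), and without the 2 libraries with high sensitive-type genes they were -3.29 at 8 h and -3.69 at 12 h. It also rose in tolerant roots at 8 h (1.59) and 12 h (2.03), but without the 2 libraries with high sensitive-type genes these became 1.05 (adjusted p = 0.0437) and 0.80 (adjusted p = 0.147), both short of a call. Rising PHT genes in roots were otherwise limited to the PHT1-4 gene emFS5.139, which passed the filter only through sensitive salt roots and was called there at 8 h (log2 fold change 2.01 ± 0.44 (SE), adjusted p = 0.000488). The filter favoured that rise, so the call is no support for it. In non-stressed roots 5 members of 42 differed between the accessions, 1 higher and 4 lower in tolerant roots, against 2.31% higher, 1.97% lower and 4.28% in either direction of all genes. The higher one was emOS90.256, whose difference the filter fixed. The 4 lower ones were emOS37.12, emOS130.230, emFS4.2048 and the PAP27 gene emFS18.1540. The PAP27 gene passed the root filter only through sensitive roots, which favoured its difference. After 5 days of salt 2 of 42 differed, emOS37.12 and emOS130.230, against 2.42% of all genes, and leaving out replicate 1 of either accession at 5 days left none called. Without the 7 libraries that stood apart 4 were called at 5 days.

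**Figure D3:**
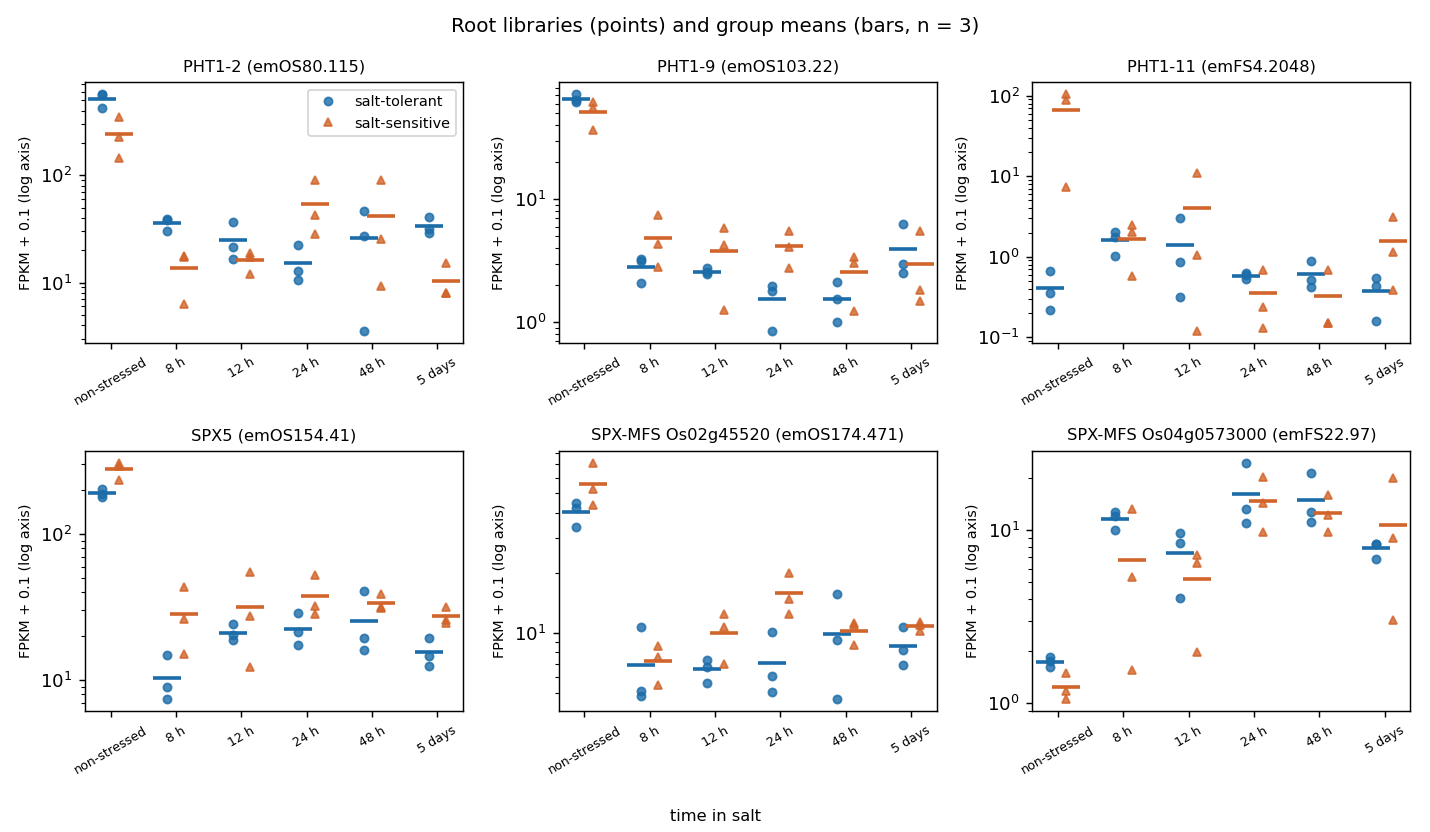
FPKM + 0.1 (log axis) of 6 members in each root library by time in salt, circles for tolerant and triangles for sensitive plants, with bars at the mean of 3 libraries. PHT1-2, PHT1-9, SPX5 and SPX-MFS2 lie below their non-stressed libraries at each salt time in both accessions, PHT1-11 is high in non-stressed sensitive roots, and SPX-MFS1 (Os04g0573000) lies above.

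The PHO1 family held the most abundant member. The PHO1-2 gene emOS36.183 on chromosome 4, named for the rice protein that loads phosphate into the xylem, had the highest mean of all 56 members, 185 FPKM over the 72 libraries. It had 657, 746 and 289 FPKM in tolerant roots at 5 days of salt, against 254, 358 and 339 FPKM without salt. Sensitive roots had 138, 246 and 304 FPKM at 5 days, against 451, 449 and 383 FPKM without salt. Replicates within a group differed by up to several fold and no salt time was called in roots of either accession (-0.31 to 0.73 in tolerant and -1.21 to 0.27 in sensitive roots). The PHO1-1 gene emOS51.116 fell in sensitive roots at 8 h, 12 h and 5 days. At 12 h it had 3.29, 8.61 and 6.26 FPKM, against 32.0, 26.0 and 26.2 FPKM without salt (log2 fold change -2.11 ± 0.42 (SE), adjusted p = 0.000217), with no overlap. At 24 h and 48 h single sensitive libraries reached 35.5 and 32.7 FPKM, as high as the non-stressed ones, and in tolerant roots no time was called (-1.23 to -0.16).

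Of the 9 SPX genes tested in roots, 6 fell in each accession, and they were the same 6. The SPX5 gene emOS154.41 on chromosome 3 fell most. It had 8.84, 14.7 and 7.28 FPKM at 8 h and 14.4, 19.4 and 12.3 FPKM at 5 days in tolerant roots, against 205, 179.8 and 187 FPKM without salt. In sensitive roots it had 14.9, 26.3 and 43.5 FPKM at 8 h and 31.5, 24.6 and 25.7 FPKM at 5 days, against 308, 235 and 293 FPKM without salt. Every salt library of both accessions lay far below every non-stressed one, and the log2 fold change was -4.14 to -2.98 in tolerant roots (adjusted p = 3.48e-09 to 9.63e-07) and -3.37 to -2.90 in sensitive roots (adjusted p = 8.59e-08 to 9.18e-07). The other SPX5 gene, emOS55.1394 on chromosome 1, had 0.84, 4.07 and 1.04 FPKM at 8 h and 9.31, 10.2 and 12.7 FPKM at 24 h in tolerant roots, against 12.6, 10.8 and 9.31 FPKM without salt. It was thus low at 8 h (-2.14) and 12 h (-1.83) and back among the non-stressed values at 24 h (-0.02, not called). In sensitive roots, at 2.39, 8.00 and 2.59 FPKM at 24 h against 18.2, 12.4 and 15.4 FPKM without salt, it was lower at each time and called at all but 48 h.

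SPX1, which in rice binds PHR2 and keeps it from its target genes, matched 3 gene models. The genes emOS168.29 and emOS168.30 lie 124 bases apart on the same strand of chromosome 10 and moved together (Pearson r = 0.987 over 36 root libraries, as a description of libraries that share depth and group), and they may share reads. They span 3258 and 330 bases, and the counts of members take each as its own gene. The first, the most abundant SPX gene, had 25.3, 34.4 and 24.8 FPKM in tolerant roots at 5 days, against 167, 143 and 166 FPKM without salt (log2 fold change -2.46 ± 0.27 (SE), adjusted p = 1.52e-07). Sensitive roots had 59.4, 41.7 and 40.7 FPKM, against 268, 175 and 241 FPKM (log2 fold change -2.25 ± 0.27 (SE), adjusted p = 4.11e-07). All 15 tolerant salt libraries were below the non-stressed ones, whereas 1 sensitive library at 8 h, at 212 FPKM, was among them. The SPX1 gene emOS79.857 on chromosome 4 had 15.4, 12.8 and 8.97 FPKM in tolerant roots at 8 h, against 48.4, 42.1 and 55.5 FPKM without salt (log2 fold change -1.91 ± 0.44 (SE), adjusted p = 0.000925). In sensitive roots its 8 h libraries were at 45.6, 21.6 and 125 FPKM, against 80.5, 51.2 and 73.7 FPKM, on both sides of the non-stressed values and not called (-0.42). At 5 days it was called lower in both accessions (-2.04 in tolerant roots).

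The SPX-MFS genes, whose rice namesakes carry phosphate across the vacuolar membrane, went in opposite directions. The gene matched to Os02g45520 (SPX-MFS2), emOS174.471, was lower at every time, with -2.48 to -2.08 in tolerant and -2.80 to -1.76 in sensitive roots, and its salt libraries (4.53 to 15.5 and 5.36 to 19.9 FPKM) lay below its non-stressed ones (34.0 to 44.9 and 43.4 to 71.2 FPKM) in both accessions. The gene matched to Os04g0573000 (SPX-MFS1), emFS22.97 on chromosome 6, had 10.9, 24.5 and 13.2 FPKM in tolerant roots at 24 h, against 1.52, 1.75 and 1.65 FPKM without salt (log2 fold change 2.63 ± 0.51 (SE), adjusted p = 0.000218). In sensitive roots it had 9.74, 20.1 and 14.2 FPKM at 24 h, against 1.08, 1.40 and 0.95 FPKM (log2 fold change 2.82 ± 0.51 (SE), adjusted p = 6.06e-05). It was called higher at all 5 times in tolerant roots and at 24 h, 48 h and 5 days in sensitive roots, and all 15 salt libraries of each accession exceeded the non-stressed ones. The gene matched to Os06g0129400 (SPX-MFS3), emFS4.1335 on chromosome 10, had 66.8, 55.7 and 67.5 FPKM at 8 h in tolerant roots, its highest group there, against 19.1, 12.1 and 14.4 FPKM without salt (log2 fold change 2.01 ± 0.34 (SE), adjusted p = 2.79e-05). Sensitive roots had 37.8, 86.3 and 47.6 FPKM at 8 h, against 12.9, 15.5 and 14.3 FPKM (log2 fold change 1.85 ± 0.34 (SE), adjusted p = 7.05e-05), and were as high at 24 h (56.0 to 63.6 FPKM, log2 fold change 1.99). Its salt libraries too lay above the non-stressed ones in both accessions. The SPX4 gene emOS99.262, named after its values were seen, was not called at any time, and its salt libraries (7.33 to 10.8 FPKM in tolerant and 7.63 to 13.6 FPKM in sensitive roots) lay below its non-stressed ones (15.4 to 16.6 and 17.2 to 21.8 FPKM).

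Purple acid phosphatases had no common direction in roots. Among the 22, the genes emOS173.316 (matched to inactive PAP1) and emOS173.315 (inactive PAP27) lie 21 bases apart on the same strand of chromosome 7 and rose together (r = 0.989 over 36 root libraries, a description), and they too may share reads. The counts of members take each of this pair as its own gene. In sensitive roots emOS173.316 had 119, 52.6 and 112 FPKM at 12 h and 108, 49.3 and 44.4 FPKM at 5 days, against 9.76, 10.6 and 10.1 FPKM without salt. The 12 h value (log2 fold change 3.01 ± 0.40 (SE), adjusted p = 1.57e-06) was its largest rise, and all 5 times were called. In tolerant roots it had 27.4, 71.5 and 79.7 FPKM at 12 h, against 22.7, 22.5 and 37.8 FPKM without salt, with overlap and no call at any time. Its neighbour emOS173.315 had 114, 46.4 and 105 FPKM at 12 h in sensitive roots, against 7.63, 10.4 and 10.3 FPKM (log2 fold change 3.01 ± 0.43 (SE), adjusted p = 3.37e-06), and in tolerant roots was called at 24 h, and at 12 h without the library of high sensitive-type genes (1.66, against 1.11 with it). At 24 h tolerant roots had 56.5, 97.6 and 88.3 FPKM, against 18.7, 19.8 and 38.5 FPKM without salt (log2 fold change 1.65 ± 0.43 (SE), adjusted p = 0.00368). The difference between the accessions' responses of this pair was not called at any time, with -2.03 to -0.11 for emOS173.316.

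The PAP27 gene emFS18.1540 on chromosome 3 had 0, 0.02 and 0.02 FPKM in non-stressed tolerant roots, against 1.46, 9.82 and 11.5 FPKM in non-stressed sensitive roots (log2 fold change -2.77 ± 0.73 (SE), adjusted p = 0.0121). That call was lost without sensitive replicate 2 (adjusted p = 0.0669) or replicate 3 (0.092). The gene passed the root filter only through sensitive roots, which favoured this accession difference, so the call is no support for it. In sensitive roots it fell to 0.05, 0.21 and 0.03 FPKM at 24 h (log2 fold change -2.66 ± 0.73 (SE), adjusted p = 0.00438) and was also lower at 48 h and 5 days, while at 8 h its libraries ran from 0 to 11.8 FPKM. Both accessions had lower emOS121.94 (PAP27) at 48 h and 5 days, with -2.27 and -1.98 in tolerant and -1.84 and -1.69 in sensitive roots. The PAP3 gene emOS55.379 was lower at 8 h in tolerant roots (-1.59, lost without the libraries of high sensitive-type genes, adjusted p = 0.0693) and at 24 h and 48 h in sensitive roots (-2.55 and -2.16). The inactive PAP1 gene emFS12.364 on chromosome 8, a root transcript, was not called for salt, and a tolerant excess at 48 h (1.94) came with 8.19, 53.6 and 5.09 FPKM in tolerant against 3.28, 1.85 and 3.46 FPKM in sensitive roots, of which replicate 2 of the tolerant group stood far above the others. The PAP16 gene emFS4.880 had 13.0, 10.4 and 1.66 FPKM at 5 days in sensitive roots, against 0.69, 1.03 and 2.00 FPKM without salt (log2 fold change 1.79 ± 0.65 (SE), adjusted p = 0.0291), and replicate 3 lay within the non-stressed range. The most abundant PAP gene, the PAP3 gene emOS55.381, with 39.0, 53.9 and 50.4 FPKM at 5 days against 83.7, 84.1 and 85.8 FPKM without salt in tolerant roots, was not called in roots.

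In leaves under salt the members split. SPX-MFS1, SPX-MFS3 and the PAP pair on chromosome 7 were called higher in both accessions, and SPX-MFS2 and the SPX1 gene emOS168.30 lower in both. The PHT1-4 genes emFS5.138 and emFS5.139 were called higher too, but passed the filter only through salt leaves. The SPX5 gene emOS154.41 was called lower and the SPX1 gene emOS79.857 higher in tolerant leaves. Of 35 tested members, 13 were higher and 9 lower at 1 time or more in tolerant leaves, against 15.3% higher and 11.7% lower of all 22551 genes. In sensitive leaves 10 were higher and 6 lower, against 10.4% higher and 17.5% lower of all genes. The higher genes of each accession include 3 (emFS5.138, emFS5.139 and emFS18.1540) that passed the filter only through salt leaves. With the libraries scaled by the median ratio the sensitive leaf count became 11 higher and 1 lower. At most 1 of SPX-MFS2 and emOS168.30 was then still called lower in sensitive leaves. The median of all genes before that scaling stood at -0.57 at 24 h in sensitive leaves. Higher genes, with the 3 that passed only through salt leaves included, were 37.1% and 28.6% of those tested. Of the higher genes 9 were shared, the same 3 among them, which is 9 of 13 in tolerant and 9 of 10 in sensitive leaves. The filter thus raised these shares. Lower genes were 25.7% and 17.1% of those tested, and 3 were shared. How many of all genes were shared in either direction was not computed, so neither overlap can be read as particular to the members. Without the 4 leaf libraries of high sensitive-type genes the tolerant count was again 20 genes, but with 11 higher and 10 lower, against 13 and 9 with them. Leaving them out leaves no 12 h group, so every 12 h value of tolerant leaves rests on such libraries. At 8 h in sensitive leaves no member was called by limma, against 1.65% of all genes, and 9 of 35 had an unadjusted p under 0.05. The median log2 fold change of the 35 tested members was -0.02 to 0.71 in tolerant and -0.60 to 0.20 in sensitive leaves over the 5 times, against -0.18 to 0.19 and -0.57 to -0.03 over all genes. The leaf marker sum was lowest at 8 h and 12 h, and its part in the values at these times was not tested.

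**Figure D4:**
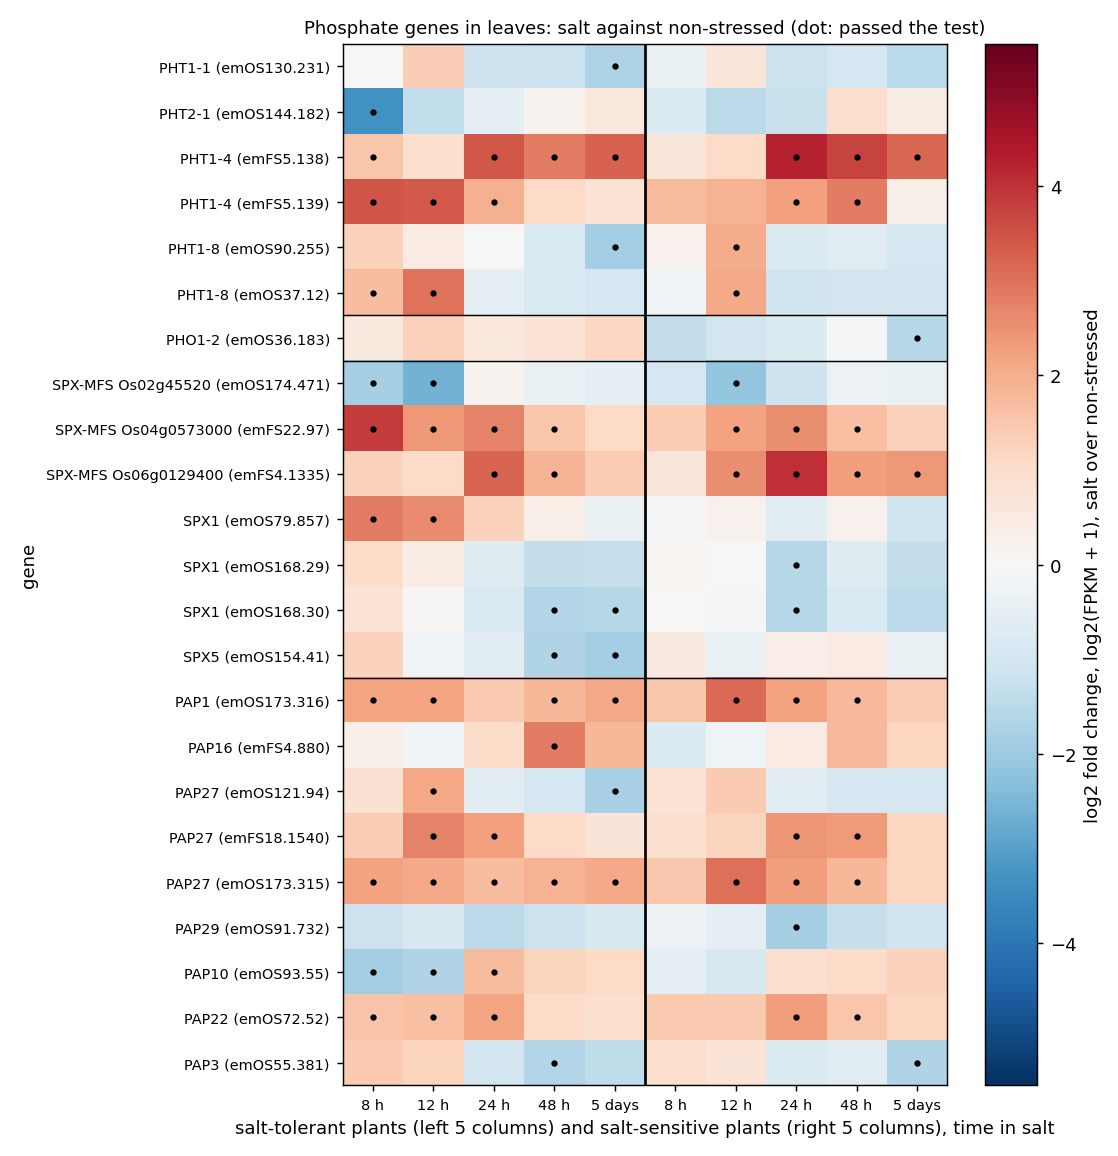
Log2 fold change, salt over non-stressed on the log2(FPKM + 1) scale, for the 5 salt times in leaves (columns, tolerant plants left and sensitive plants right). Only members called at 1 salt time or more in leaves of either accession are drawn. Dots mark called changes, of which sensitive leaves have none at 8 h. PHT1-4, SPX-MFS1, SPX-MFS3 and the PAP pair are red in both accessions.

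The PHT1-4 genes emFS5.138 and emFS5.139 lie 9034 bases apart on opposite strands of chromosome 6 and both rose in leaves. Both passed the leaf filter only through salt leaves, which favoured a rise, so their calls and p-values are no support for one. Rice PHT1-4 is a phosphate uptake transporter. In tolerant leaves emFS5.138 had 15.5, 11.1 and 9.70 FPKM at 24 h and 7.20, 7.31 and 20.7 FPKM at 5 days, against 0.14, 0.40 and 0.09 FPKM without salt. In sensitive leaves it had 17.6, 18.7 and 26.1 FPKM at 24 h and 11.1, 8.78 and 8.50 FPKM at 5 days, against 0.01, 0.20 and 0.28 FPKM without salt. Every salt library of both accessions exceeded the non-stressed ones, and the largest rise was at 24 h (log2 fold change 3.42 ± 0.42 (SE), adjusted p = 2.73e-07 in tolerant leaves and log2 fold change 4.22 ± 0.42 (SE), adjusted p = 8.12e-09 in sensitive leaves). Its neighbour peaked earlier in tolerant leaves, with 3.48 at 8 h (2.37 without the library of high sensitive-type genes) and 3.36 at 12 h, and in sensitive leaves was called at 24 h (2.25) and 48 h (2.83). In roots emFS5.138 reached no more than 2.62 FPKM, and was listed at 0 in all non-stressed tolerant roots.

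The PHT2-1 gene emOS144.182 on chromosome 4, named for the phosphate carrier of the chloroplast envelope, was low at 8 h in tolerant leaves. It had 2.09, 4.66 and 2.79 FPKM at 8 h, 18.0, 12.3 and 14.1 FPKM at 12 h, 28.3, 23.8 and 29.3 FPKM at 24 h, 38.0, 42.1 and 57.7 FPKM at 48 h and 47.1, 49.6 and 92.7 FPKM at 5 days, against 40.1, 34.8 and 44.0 FPKM without salt. The 8 h libraries were the lowest of all and did not overlap with any other time (log2 fold change -3.32 ± 0.33 (SE), adjusted p = 2.75e-08). In sensitive leaves it had 17.9, 13.2 and 12.2 FPKM at 8 h, against 17.0, 26.2 and 33.4 FPKM without salt, and no time was called (-1.44 to 0.95). The difference between the accessions' 8 h responses was -2.57 (adjusted p = 0.00145). Without the library of high sensitive-type genes the tolerant fold change was -3.13 and this difference -2.38, both still called. The leaf marker sum at 8 h was 1041 to 2186 FPKM in tolerant and 6154 to 8138 FPKM in sensitive leaves. The PHT1-8 genes emOS37.12 and emOS90.255 were called higher at 12 h in sensitive leaves (2.05 for emOS90.255), and emOS37.12 was higher at 8 h and 12 h in tolerant leaves (1.68 and 3.01). Without the libraries of high sensitive-type genes the 8 h value became 0.90 (adjusted p = 0.11) and the 12 h value could not be given.

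SPX-MFS genes gave the largest SPX changes in leaves. SPX-MFS1 (emFS22.97) had 137, 76.7 and 127 FPKM at 8 h in tolerant leaves, against 9.54, 6.32 and 5.09 FPKM without salt (log2 fold change 3.83 ± 0.34 (SE), adjusted p = 6.94e-09). In sensitive leaves it had 16.4, 28.9 and 39.6 FPKM at 8 h, against 11.1, 11.1 and 6.81 FPKM, and was called from 12 h to 48 h (1.66 to 2.58). The difference of the 8 h responses was 2.43 (adjusted p = 0.00262), and without the library of high sensitive-type genes the tolerant fold change was 3.68 and this difference 2.28, both still called. SPX-MFS3 (emFS4.1335) peaked at 24 h, with 101, 89.9 and 67.4 FPKM in tolerant leaves against 8.30, 8.43 and 7.95 FPKM without salt (log2 fold change 3.22 ± 0.37 (SE), adjusted p = 7.23e-08). In sensitive leaves it had 162, 118 and 82.7 FPKM, against 6.55, 7.42 and 5.12 FPKM (log2 fold change 4.01 ± 0.37 (SE), adjusted p = 1.73e-09), and stayed high at 5 days with 48.7, 24.6 and 44.0 FPKM. For both genes every salt library of both accessions was above the non-stressed ones. SPX-MFS2 (emOS174.471) was lower at 8 h and 12 h in tolerant leaves (-1.83 and -2.59) and at 12 h in sensitive leaves (-2.15).

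**Figure D5:**
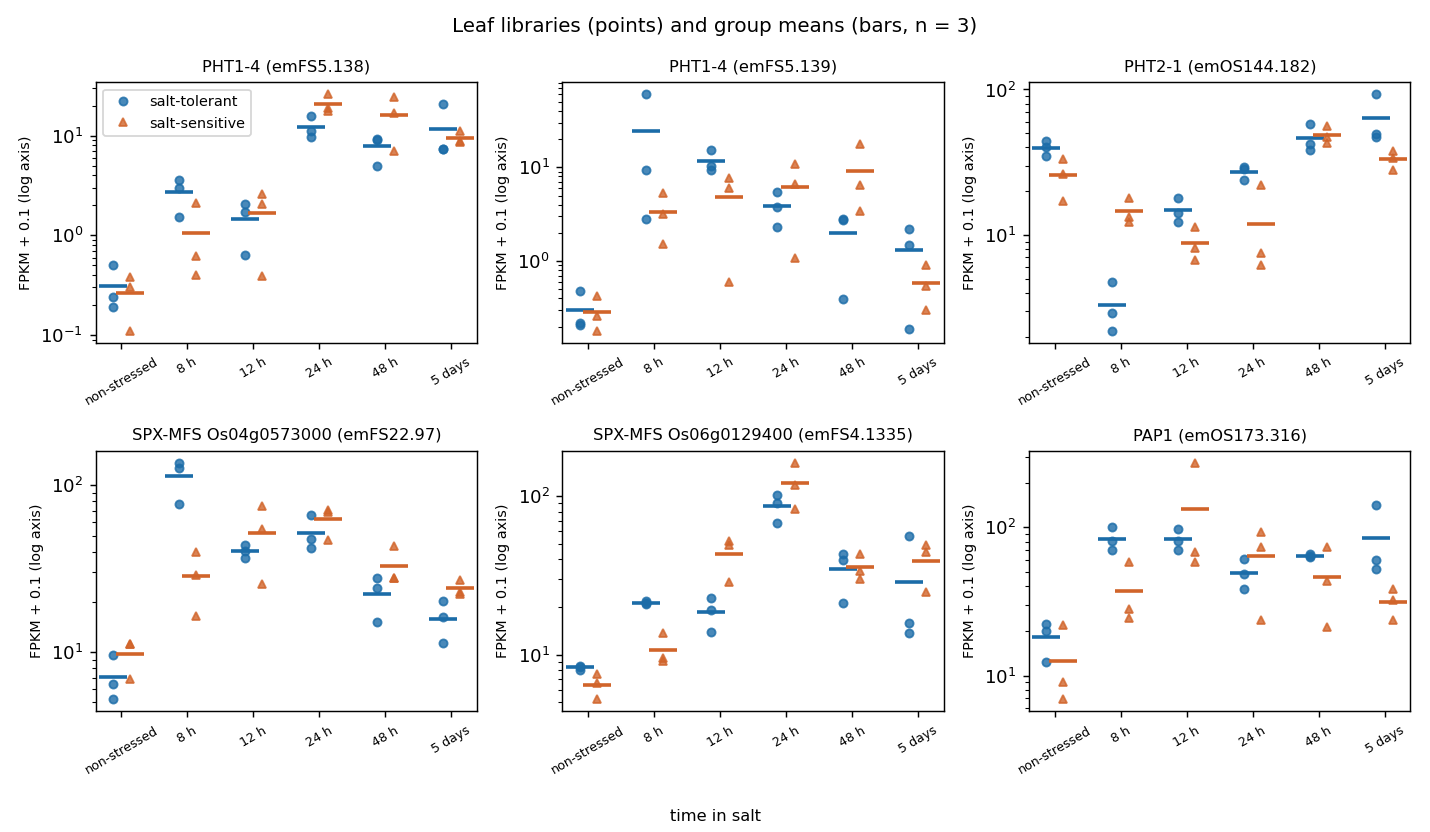
FPKM + 0.1 (log axis) of 6 members in each leaf library by time in salt, circles for tolerant and triangles for sensitive plants, with bars at the mean of 3 libraries. PHT2-1 in tolerant leaves is lowest at 8 h (2.09 to 4.66 FPKM), SPX-MFS1 in tolerant leaves highest at 8 h (76.7 to 137 FPKM), and SPX-MFS3 in both accessions highest at 24 h.

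The SPX1 gene emOS79.857 had 99.8, 10.6 and 24.0 FPKM at 8 h and 25.2, 32.1 and 21.9 FPKM at 12 h in tolerant leaves, against 2.52, 5.64 and 2.74 FPKM without salt (log2 fold change 2.79 ± 0.51 (SE), adjusted p = 0.000106 at 8 h). The groups did not overlap, and replicate 1 at 8 h, the highest, is a library of high sensitive-type genes, without which the 8 h value was 1.94 and still called. In sensitive leaves it had 10.3, 8.78 and 7.26 FPKM at 8 h, against 6.57, 11.2 and 10.2 FPKM, with no call at any time. The difference of the 8 h responses was 2.85 (adjusted p = 0.0159), and 2.00 (adjusted p = 0.0615) without the libraries of high sensitive-type genes. Of the SPX1 pair on chromosome 10, emOS168.29 had 12.3, 16.9 and 19.1 FPKM at 24 h in sensitive leaves, against 37.4, 52.1 and 59.0 FPKM without salt (-1.56, and -0.97 with median-ratio scaling), and emOS168.30 was lower at 48 h and 5 days in tolerant leaves (-1.63 and -1.58). The SPX5 gene emOS154.41 had 3.02, 3.09 and 6.06 FPKM at 5 days in tolerant leaves, against 13.2, 22.8 and 15.3 FPKM (log2 fold change -1.86 ± 0.46 (SE), adjusted p = 0.00292), and was not called in sensitive leaves.

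Among PAP genes in leaves 7 of 17 rose and 3 fell in tolerant plants and 4 rose and 2 fell in sensitive plants. The gene emOS173.316 had 70.3, 97.7 and 80.5 FPKM at 12 h in tolerant leaves, against 22.1, 19.9 and 12.2 FPKM without salt (log2 fold change 2.17 ± 0.53 (SE), adjusted p = 0.00167). In sensitive leaves it had 273, 67.9 and 58.0 FPKM at 12 h, against 21.7, 6.80 and 8.88 FPKM (log2 fold change 3.10 ± 0.53 (SE), adjusted p = 6.82e-05). The tolerant salt libraries all exceeded the non-stressed ones, and in sensitive leaves replicate 1 at 12 h, which stood apart from its replicates, was the highest. Its neighbour emOS173.315 was higher at all 5 times in tolerant leaves (1.70 to 2.21). The PAP27 gene emFS18.1540, which fell in sensitive roots, rose in leaves, with 4.38, 8.03 and 6.21 FPKM at 24 h in sensitive leaves against 0.51, 0.43 and 0.05 FPKM (log2 fold change 2.42 ± 0.53 (SE), adjusted p = 0.000481). In tolerant leaves it had 1.58, 7.53 and 6.82 FPKM at 24 h, against 0.38, 0.12 and 0.05 FPKM (log2 fold change 2.24 ± 0.53 (SE), adjusted p = 0.00147). This gene passed the leaf filter only through salt leaves, which favoured a rise, so its leaf calls are no support for one.

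PAP22 (emOS72.52) rose in both accessions, most at 24 h (2.17 in tolerant and 2.30 in sensitive leaves), and all salt libraries exceeded the non-stressed ones. PAP16 (emFS4.880) had 15.9, 22.8 and 8.64 FPKM at 48 h in tolerant leaves, against 5.62, 0.27 and 0.28 FPKM without salt (log2 fold change 2.83 ± 0.79 (SE), adjusted p = 0.0077). PAP10 (emOS93.55) and emOS121.94 (PAP27) were each called in both directions in tolerant leaves. PAP10 was lower at 8 h (-1.93, or -1.89 without the library of high sensitive-type genes) and 12 h (-1.64) and higher at 24 h (1.73), and emOS121.94 was higher at 12 h (2.11) and lower at 5 days (-1.77). The tolerant 12 h leaf libraries all have high sensitive-type genes, so the higher call of emOS121.94 rests on such libraries alone. The PAP3 gene emOS55.381 had 17.3, 18.4 and 26.9 FPKM at 5 days in sensitive leaves, against 61.8, 64.5 and 73.2 FPKM (log2 fold change -1.65 ± 0.32 (SE), adjusted p = 0.000305). In tolerant leaves it had 23.9, 21.0 and 26.9 FPKM at 48 h, against 71.7, 94.5 and 62.2 FPKM (log2 fold change -1.61 ± 0.32 (SE), adjusted p = 0.000285). At 8 h it ran the other way, at 308, 143.9 and 192 FPKM in tolerant and 150.1, 107 and 136 FPKM in sensitive leaves, above the non-stressed libraries but short of a call. PAP29 (emOS91.732) was lower at 24 h in sensitive leaves (-1.81, and -1.23 with median-ratio scaling).

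The most abundant root member was low in leaves. The PHO1-2 gene emOS36.183 had 3.67, 1.09 and 1.16 FPKM in tolerant non-stressed leaves, against 6.56, 6.20 and 12.6 FPKM in sensitive ones (log2 fold change -1.71 ± 0.47 (SE), adjusted p = 0.0275). It was the single member of 35 that differed between non-stressed leaves, against 2.03% of all genes, leaving out any of 4 single libraries ended the call, and 4 members were called without the 7 libraries that stood apart. At 5 days it had 2.38, 1.87 and 1.84 FPKM in sensitive leaves, lower than without salt (-1.58), a call lost without replicate 3 of the non-stressed group. Between leaves at 5 days no member was called by limma, against 1.8% of all genes, and 6 of 35 had an unadjusted p under 0.05. Without the 7 libraries that stood apart 3 were called. The salt responses of the accessions differed for 3 of 35 members in leaves, all at 8 h and all named above, against 5.8% of all genes, and for 12 without the 7 libraries that stood apart. In roots they differed for 3 of 42, against 3.13% of all genes. These were emFS4.2048, emOS90.256, whose difference the filter fixed, and at 24 h the PHT1-1 gene emOS130.231 (difference of the log2 fold changes 1.83 ± 0.38 (SE), adjusted p = 0.00576).

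More members were higher in roots than in leaves. Without salt 16 of 42 tested members were higher and 3 lower in roots than in leaves of tolerant plants, against 13.8% higher and 11.4% lower of all 22292 genes, and 19 were higher and 2 lower in sensitive plants, against 10.9% and 13.9%. Of the higher ones, 8 in tolerant and 9 in sensitive plants passed the filter only through roots, emOS80.115, emOS103.22 and, in tolerant plants, emOS90.256 among them, so these counts are no support for a difference. The PHO1-2 gene emOS36.183 had 254, 358 and 339 FPKM in tolerant roots, against 3.67, 1.09 and 1.16 FPKM in tolerant leaves (log2 fold change 6.83 ± 0.32 (SE), adjusted p = 3.33e-08), and in sensitive plants 451, 449 and 383 FPKM in roots against 6.56, 6.20 and 12.6 FPKM in leaves (log2 fold change 5.56 ± 0.32 (SE), adjusted p = 1.71e-07). The PHT1-2 gene emOS80.115 had no leaf library above 0.26 FPKM (root minus leaf 8.95 and 7.77), and the SPX5 gene emOS154.41 was higher in roots by 3.44 in tolerant and 4.43 in sensitive plants. Members higher in leaves in both accessions were the plastid carrier gene emOS144.182 (-3.73 and -2.86) and SPX-MFS1, emFS22.97 (-1.56 and -2.29).

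Of the 45 members tested in a tissue, 34 were called in 1 contrast or more and 11 in none. These contrasts were salt, tissue, response difference, and accession without salt and at 5 days. Of all 23877 genes tested in a tissue 54% were called, but with the accession contrasts at the other salt times counted too, so the shares are not alike. The 34 also include members whose calls the filter fixed or favoured, such as emOS90.256, so the count is no support for a difference. The 11 averaged 0.211 to 66.1 FPKM over the 72 libraries. Chosen after their values were seen, the highest was the PAP18 gene emOS43.315 at 66.1 FPKM, followed by the PAP26 gene emOS105.441 at 29.9 FPKM, the PAP2 gene emFS27.111 at 25.6 FPKM and the PHO1-2 gene emFS12.519 at 23.9 FPKM, and PAP26 of Arabidopsis is a main vacuolar acid phosphatase. The PAP4 genes emFS10.311 and emFS10.315 lie 35267 bases apart and varied together between leaf replicates (r = 0.97 over 36 leaf libraries, a description).

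Genes of the phosphate pathway outside the 4 families were counted by the same call, at 1 salt time or more. The shares of all genes to set beside them are 9.77% higher and 9.46% lower in tolerant roots, 11.9% and 11.4% in sensitive roots, 15.3% and 11.7% in tolerant leaves and 10.4% and 17.5% in sensitive leaves. Of 38 genes of membrane lipid replacement (galactolipid and sulpholipid synthases, phospholipases and glycerophosphodiesterases), 34 were tested in each tissue. In roots 4 rose and 3 fell in tolerant plants and 2 rose and 5 fell in sensitive plants, and in leaves 14 rose and 5 fell in tolerant plants and 8 rose and 5 fell in sensitive plants. Of 39 other phosphate carriers, 38 were tested in roots, where 3 rose and 4 fell in tolerant plants and 2 rose and 5 fell in sensitive plants, and 37 in leaves, where 7 rose and 6 fell in tolerant plants and 2 rose and 9 fell in sensitive plants. Of 15 other phosphate-releasing enzymes, 12 were tested in roots, where 3 fell and 0 rose in tolerant plants and 2 rose and 0 fell in sensitive plants. All 15 were tested in leaves, where 5 rose and 5 fell in tolerant plants and 2 rose and 2 fell in sensitive plants. Of 17 signalling genes, 16 were tested in roots, where 2 fell in tolerant and 3 in sensitive plants with 0 called higher in either. In leaves 15 were tested, of which 3 rose and 1 fell in tolerant plants and 1 fell and 0 rose in sensitive plants.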

How the data were processed

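Leaf and root RNA of both accessions was sequenced in 72 libraries, 3 for each of 24 groups of accession, tissue and time. The authors deposited 1 table of FPKM per gene model. The submitters' processing notes name Trimmomatic 0.32 and HISAT2 2.1.0, and the methods speak of RPKM. The genome build, strand setting and counting tool were stated in no source used here, so overlapping genes, antisense genes and near-identical copies may share reads. The table holds no raw read totals, so no counting error is given.

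Groups followed the labels. Values were analysed as log2(FPKM + 1) with limma 3.58.1 in R 4.3.3. Each tissue was fitted with its 36 libraries in 1 model of 12 groups, without a replicate block, since these groups share 1 estimate of the spread, and root against leaf was fitted on the 12 non-stressed libraries. Genes at 1 FPKM or more in at least 3 libraries were tested (22551 in leaves, 22194 in roots and 22292 in both), with Benjamini-Hochberg adjustment over all of them. The call took its thresholds from the study's methods: an adjusted p no higher than 0.05 with a change of 1.5 or more on the log2 scale. The authors' differential test used DESeq2, which needs counts and was not run here. Tables were handled with Python 3.11.15, pandas 2.3.3 and numpy 2.4.6, figures were drawn with matplotlib 3.10.9, and the test was tested on simulated data.

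The members and lists were chosen with earlier results of these data known. Called members could be named, and values per library were given for at most 6 members a family: those with the largest absolute log2 fold change among calls whose groups do not overlap, and the most abundant one. The genes emOS90.256, emOS99.262, emOS80.112, emOS80.113, emOS130.232, the PAP4 genes and the abundant members never called were named after their values were seen. Alternatives were a pseudocount of 0.1 or 5, median-ratio scaling, no low-value filter, a mean of 5 FPKM or more, a fold threshold of 1, a fit of the compared groups alone, a replicate block and leaving out each library. After seeing the data, leaving out the libraries labelled tolerant with high sensitive-type genes and leaving out the libraries apart from their replicates were added. No genome, protein or promoter sequence of these gene models was used here.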

Additional observations from a re-analysis of the deposited data

Results flagged for a closer look

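The salt responses of the accessions differed by a test of the difference itself for 3 members in leaves, all at 8 h. As tolerant minus sensitive response on the log2 scale they were 2.43 for the SPX-MFS1 gene emFS22.97, 2.85 for the SPX1 gene emOS79.857 and -2.57 for the PHT2-1 gene emOS144.182. The value of emOS79.857 was 2.00 without the libraries labelled tolerant with high sensitive-type genes and was then not called (adjusted p = 0.0615).

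In roots the PHT1-11 gene emFS4.2048 gave 5.05, 4.55, 5.31, 5.35 and 4.25 at 8 h, 12 h, 24 h, 48 h and 5 days, where non-stressed roots had 0.12 to 0.56 FPKM in tolerant and 7.26 to 105 FPKM in sensitive plants. A fall thus had little room in tolerant roots. The PHT1-3 gene emOS90.256 gave -1.93, -1.75, -1.88, -1.87 and -1.82 at the same times, with the difference fixed by the 3 libraries that took it past the filter. The PHT1-1 gene emOS130.231 gave 1.83 at 24 h.

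Opposite directions in the tissues of the same plants were called for 2 members, and the difference between tissues was not tested. How many of all genes had opposite calls was not computed, so the count cannot be read as particular to the members. The SPX1 gene emOS79.857 in tolerant plants at 8 h was at -1.91 in roots and 2.79 in leaves. The PAP27 gene emFS18.1540 in sensitive plants was at -2.66 in roots and 2.42 in leaves at 24 h, and at -2.62 in roots and 2.33 in leaves at 48 h. In leaves this gene passed the filter only through salt libraries.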

How the results depend on the processing

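None of the 272 calls on members (salt, non-stressed and 5 day accession, salt response difference and tissue contrasts) changed direction under any alternative, and 123 lost their call under at least 1: 108 with a pseudocount of 5, 53 on leaving out a single library and 30 under another setting, of which 17 with median-ratio scaling. That scaling removes shifts of the median of all genes of up to -0.57 (sensitive leaves at 24 h) and 0.30 (response difference in leaves at 24 h).

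With a pseudocount of 5 the members called were 12 for salt in tolerant leaves, 7 in sensitive leaves and 14 in sensitive roots, 0 and 3 between the accessions in non-stressed leaves and roots, 1 in roots at 5 days, and 11 and 12 between root and leaf in tolerant and sensitive plants. With a pseudocount of 0.1, 1 differed between leaves at 5 days. With a mean of at least 5 FPKM, 0 and 3 differed between non-stressed leaves and roots, and 1 response differed in roots. With a fold threshold of 1, 8 differed between non-stressed roots and 4 at 5 days. Fitted on the compared groups alone, 0 differed between non-stressed leaves. Without the libraries that stood apart, 4 differed between non-stressed leaves, 3 between leaves at 5 days, 12 in leaf response and 4 between roots at 5 days. The cause of these changes was not tested, apart from the smaller folds that a pseudocount of 5 gives by construction.

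Leaving out 1 library at a time gave 14 to 18 members for salt in tolerant roots, 21 to 23 in sensitive roots, 19 to 23 in tolerant leaves and 14 to 18 in sensitive leaves. Between accessions it gave 4 to 6 in non-stressed roots, 0 to 3 in roots at 5 days, 0 to 1 in non-stressed leaves and 0 to 1 in leaves at 5 days (1 without tolerant replicate 3). Response differences numbered 2 to 5 in roots (5 without tolerant 5 day replicate 3 or sensitive non-stressed replicate 1) and 3 to 5 in leaves (5 without tolerant non-stressed replicate 1 or 5 day replicate 3). Root against leaf gave 17 to 19 in tolerant and 18 to 23 in sensitive plants.

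Same-numbered libraries did not consistently deviate together. The median correlation for a number within an accession and tissue was -0.222 to 0.068, although single pairs ran from -0.559 to 0.704 in tolerant leaves. The numbers were therefore not used to pair the samples. With the number as a block, the counts did not change: 17, 22, 20 and 16 members for salt in tolerant roots, sensitive roots, tolerant leaves and sensitive leaves, and 1 of the 272 calls was lost.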
